A study of Mus musculus with 42 samples.

Results

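The transient Control genes described here are 64 genes whose mean level in untreated bone-marrow-derived macrophages (BMDM) was higher at Control 2 h than at Control 0 h and was back near its starting level at Control 24 h. They were chosen by their measured values in the Control libraries themselves. Each count was divided by its library total and scaled by 1e6 (CPM), the CPM of the 6 Control libraries of a time point was averaged over both genotypes, and log2(mean CPM + 1) was compared between times. A gene was kept where the highest of the 3 means was at least 5 CPM, the 2 h value exceeded the 0 h value by at least 0.8, and the 24 h value lay within 0.3 of the 0 h value. Of 37310 genes in the table, 9403 reached the CPM minimum, 178 of these also passed the threshold on the rise, and 64 passed all 3 conditions. The labels and the methods do not say what was done to Control cells between 0 h and 2 h, so the genes are named here by their time course and not by a cause such as a change of medium.

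The series held 42 RNA-seq libraries of mouse BMDM, macrophages grown from marrow with conditioned medium of L929 cells, in 14 groups of 3. Cells came from male mice with loxP-flanked Irf5 alleles and LysM-Cre, a Cre knocked into the Lyz2 gene that acts in myeloid cells (labelled KO), or from wild-type mice (labelled WT). Both genotypes were sampled without treatment (Control) at 0, 2 and 24 h, and with the saturated fatty acid palmitate or with bacterial lipopolysaccharide (LPS), an agonist of Toll-like receptor 4, at 2 and 24 h. The labels do not say whether the libraries of a group came from separate mice, so the p-values measure only the spread between libraries. Columns of the count table name only the group. Library numbers below follow column order within a group and are not the replicate numbers of the sample titles.

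Many genes of this kind are immediate early or early response genes. Macrophages hold their chromatin ready and their inducing factors preformed, so transcription starts within minutes of a stimulus and needs no new protein. The products of many of these genes then close the loop: IκB proteins bind NF-κB, dual-specificity phosphatases switch off MAP kinases, and tristetraprolin speeds the decay of cytokine mRNAs. For that reason such genes are known for rising briefly and falling again.

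The promoters of the 6 members with the largest rise are shown because they let a reader set the letters of known response elements beside the values that follow. They are windows of 300 bases around the start site from RefSeq on GRCm38.p6, printed 5′ to 3′ on the gene's own strand, with capitals where a searched motif matched on either strand. The cAMP response element (CRE) was searched as TGACGTCA, and its core, which every full CRE also contains, as TGACG. The site of AP-1, the dimer of Fos and Jun proteins, was searched as TGANTCA. For the E-box, which clock and Myc proteins can bind, the letters were CACGTG. The unit bound by heat shock factors was GAANNTTC, and the box bound by the TATA-binding protein was TATAAA. The NF-κB site and the CArG box of serum response factor were searched by their usual patterns. Nr4a1 and Nr4a2 encode orphan nuclear receptors, Cxcl10 a chemokine, Tlr2 a receptor for bacterial lipoproteins, Noct the deadenylase-like protein nocturnin and Maff a small Maf transcription factor. Where the table held several promoters of a gene, as for Maff, the window with the most matches is given.
Nr4a1, chr15:101266596-101266895, plus strand, with matches to the CRE core and to the NF-κB site:
Nr4a1: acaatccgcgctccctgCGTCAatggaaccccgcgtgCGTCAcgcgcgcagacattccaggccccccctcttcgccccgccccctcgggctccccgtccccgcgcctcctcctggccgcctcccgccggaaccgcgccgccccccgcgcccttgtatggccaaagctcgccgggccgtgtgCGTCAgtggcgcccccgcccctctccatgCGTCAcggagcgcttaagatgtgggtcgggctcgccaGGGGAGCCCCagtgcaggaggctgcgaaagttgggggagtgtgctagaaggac
Cxcl10, chr5:92348840-92349139, minus strand, with matches to the NF-κB site and to AP-1:
Cxcl10: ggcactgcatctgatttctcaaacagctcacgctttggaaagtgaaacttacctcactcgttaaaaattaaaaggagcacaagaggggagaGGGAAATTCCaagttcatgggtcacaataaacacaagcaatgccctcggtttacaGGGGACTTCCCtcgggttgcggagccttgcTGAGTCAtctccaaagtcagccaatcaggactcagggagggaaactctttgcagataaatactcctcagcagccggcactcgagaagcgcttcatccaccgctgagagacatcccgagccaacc
Nr4a2, chr2:57123954-57124253, minus strand, with matches to the CRE core and to the TATA box:
Nr4a2: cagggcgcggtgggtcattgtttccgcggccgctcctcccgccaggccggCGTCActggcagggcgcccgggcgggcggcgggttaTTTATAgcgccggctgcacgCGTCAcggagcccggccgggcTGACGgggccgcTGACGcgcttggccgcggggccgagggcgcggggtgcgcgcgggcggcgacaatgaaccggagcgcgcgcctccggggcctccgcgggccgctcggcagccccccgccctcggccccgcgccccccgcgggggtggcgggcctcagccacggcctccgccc
Tlr2, chr3:83841559-83841858, minus strand, with matches to the NF-κB site:
Tlr2: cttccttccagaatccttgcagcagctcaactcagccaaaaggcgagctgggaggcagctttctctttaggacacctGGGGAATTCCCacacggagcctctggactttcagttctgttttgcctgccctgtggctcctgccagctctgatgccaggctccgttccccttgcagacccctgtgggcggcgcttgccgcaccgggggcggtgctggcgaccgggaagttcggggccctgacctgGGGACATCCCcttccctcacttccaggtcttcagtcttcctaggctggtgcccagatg
Noct, chr3:51224197-51224496, plus strand, with a match to the CRE core:
Noct: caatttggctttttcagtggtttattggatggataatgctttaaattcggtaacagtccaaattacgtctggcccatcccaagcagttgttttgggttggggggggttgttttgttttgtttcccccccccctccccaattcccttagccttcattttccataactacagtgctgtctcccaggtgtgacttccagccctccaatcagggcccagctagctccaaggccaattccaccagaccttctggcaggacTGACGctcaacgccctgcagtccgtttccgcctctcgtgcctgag
Maff, chr15:79347270-79347569, plus strand, with matches to the full CRE, the CRE core and the E-box:
Maff: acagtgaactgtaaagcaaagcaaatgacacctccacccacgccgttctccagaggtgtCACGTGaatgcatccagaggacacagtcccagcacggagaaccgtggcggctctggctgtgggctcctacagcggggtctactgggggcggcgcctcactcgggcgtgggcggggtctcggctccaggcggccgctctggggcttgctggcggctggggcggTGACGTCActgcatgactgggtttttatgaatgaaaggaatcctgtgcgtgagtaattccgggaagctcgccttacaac
The 2 nuclear receptor genes thus carried copies of the CRE core, in Nr4a1 beside a match to the NF-κB site. The chemokine and Toll-like receptor genes carried NF-κB sites without a CRE core. A match in a window is a description of its letters and not a site in use.

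Over the whole set, 51 of the 64 members had a promoter in the table, with 74 windows in all. The full CRE was found in 8.11% of the member windows and in 3.06% of the 11391 windows of genes tested. It stood in Ccnl1, Creb5, Dusp1, Irf2bpl, Maff and Rcan1. NF-κB sites were found in 18.9% of member windows against 10.4% of those of genes tested, and the TATA box in 14.9% against 6.94%. Shares of the other motifs were 37.8% against 31.4% for the CRE core, 12.2% against 10.2% for the E-box, 6.76% against 5.15% for AP-1, 6.76% against 5.90% for the heat shock unit and 2.7% against 1.28% for the CArG box. In the GENCODE transcript with the longest coding part, 16 members (25%) had 3 or fewer exons, against 11.6% of 10959 protein-coding genes tested. The AU-rich nonamer TTATTTATT, which binds tristetraprolin, stood in the 3′ untranslated region of 12 members (18.8%) and of 7.15% of those genes. The median number of ATTTA pentamers there was 2 in members and 1 in all. These shares are descriptions of the member list and were not tested.

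Library totals ranged from 2848793 to 7743442 counts with a median of 5625399, and 3 counts correspond to 0.387 CPM in the deepest library and 1.05 CPM in the shallowest. Macrophage markers were high in every library, with a summed level of 10077.9 to 22927.0 CPM over 8 genes, while T or NK cell markers summed to at most 2.34 CPM erythroid markers to at most 0.378 CPM, B cell markers to 3.09 to 13.2 CPM and dendritic cell markers to 0.727 to 9.09 CPM. Granulocyte precursor markers summed to 15.0 to 66.4 CPM in WT and to 32.3 to 147.0 CPM in KO libraries. Irf5, the deleted gene, was not lower in the libraries labelled KO in any of the 7 conditions, with log2 fold changes of 0.04 to 0.47 (KO less WT). It was called higher in KO at Control 0 h, Control 2 h, palmitate 24 h and LPS 24 h (adjusted p 9.1e-08, 0.019, 0.0027 and 1.6e-07 by edgeR). In each of these conditions every KO library lay above every WT library. Since counts cover the whole gene, they do not check the deleted part. Lyz2, the site of the Cre, was lower in all 7, by log2 fold changes of -0.51 to -1.11. Groups are therefore named by their labels throughout. Fibroblast markers were the list that moved most between libraries. Col1a1 reached 204.7 CPM, Col1a2 94.75 CPM and Col3a1 25.12 CPM. Pdgfra, Dcn and Lum reached at most 0.900, 0.782 and 0.156 CPM in any library, so the high sums of this list were collagen reads. The summed level of the 6 genes was 0.517 to 0.883 CPM in WT Control 0 h and 43.3 to 70.0 CPM in KO Control 0 h, and it ranged from 0.804 to 320.4 CPM within KO palmitate 2 h.

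The rise at Control 2 h, which the rule fixed and which is given as a description, ranged from 2.17 (Nr4a1) down to 0.80 (Luzp1) on the log2(mean CPM + 1) scale. Levels below are CPM scaled by TMM, as the lowest, the median and the highest of the 6 libraries of a condition. Nr4a1 was at 1.81, 3.18 and 5.48 CPM at Control 0 h, at 12.2, 18.6 and 21.4 CPM at Control 2 h, and at 1.46, 2.80 and 3.37 CPM at Control 24 h. Nr4a2 was at 0.360, 0.792 and 1.99 CPM, then at 3.94, 7.73 and 10.9 CPM, and then at 0.514, 1.06 and 1.68 CPM. Both receptors act without a known ligand and are classic immediate early genes. For both, every Control 2 h library lay above every library of the other 2 Control times.

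Cxcl10, which draws CXCR3-bearing T cells, was at 0.171, 0.466 and 0.789 CPM at Control 0 h, at 4.30, 4.87 and 7.42 CPM at Control 2 h, and at 0, 0.215 and 0.874 CPM at Control 24 h. Its Control 0 h and 24 h levels were at or near the level of 3 counts, so its rise was measured from a floor. Tlr2 was at 31.3, 41.4 and 55.0 CPM, then at 159.7, 168.1 and 212.1 CPM, and then at 35.2, 40.1 and 48.2 CPM. Arrdc3, an α-arrestin of the family of TXNIP that lowers receptor levels at the membrane, went from 8.83, 16.4 and 21.03 CPM to 41.7, 53.6 and 61.4 CPM and back to 14.2, 17.1 and 18.5 CPM. The Control 2 h libraries of all 3 genes stood apart from the others, and the rest of the 12 leading members (Noct, Maff, Adora2b, Thbs1, Dusp1, Rcan1 and Hivep3) did the same.

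**Figure D1:**
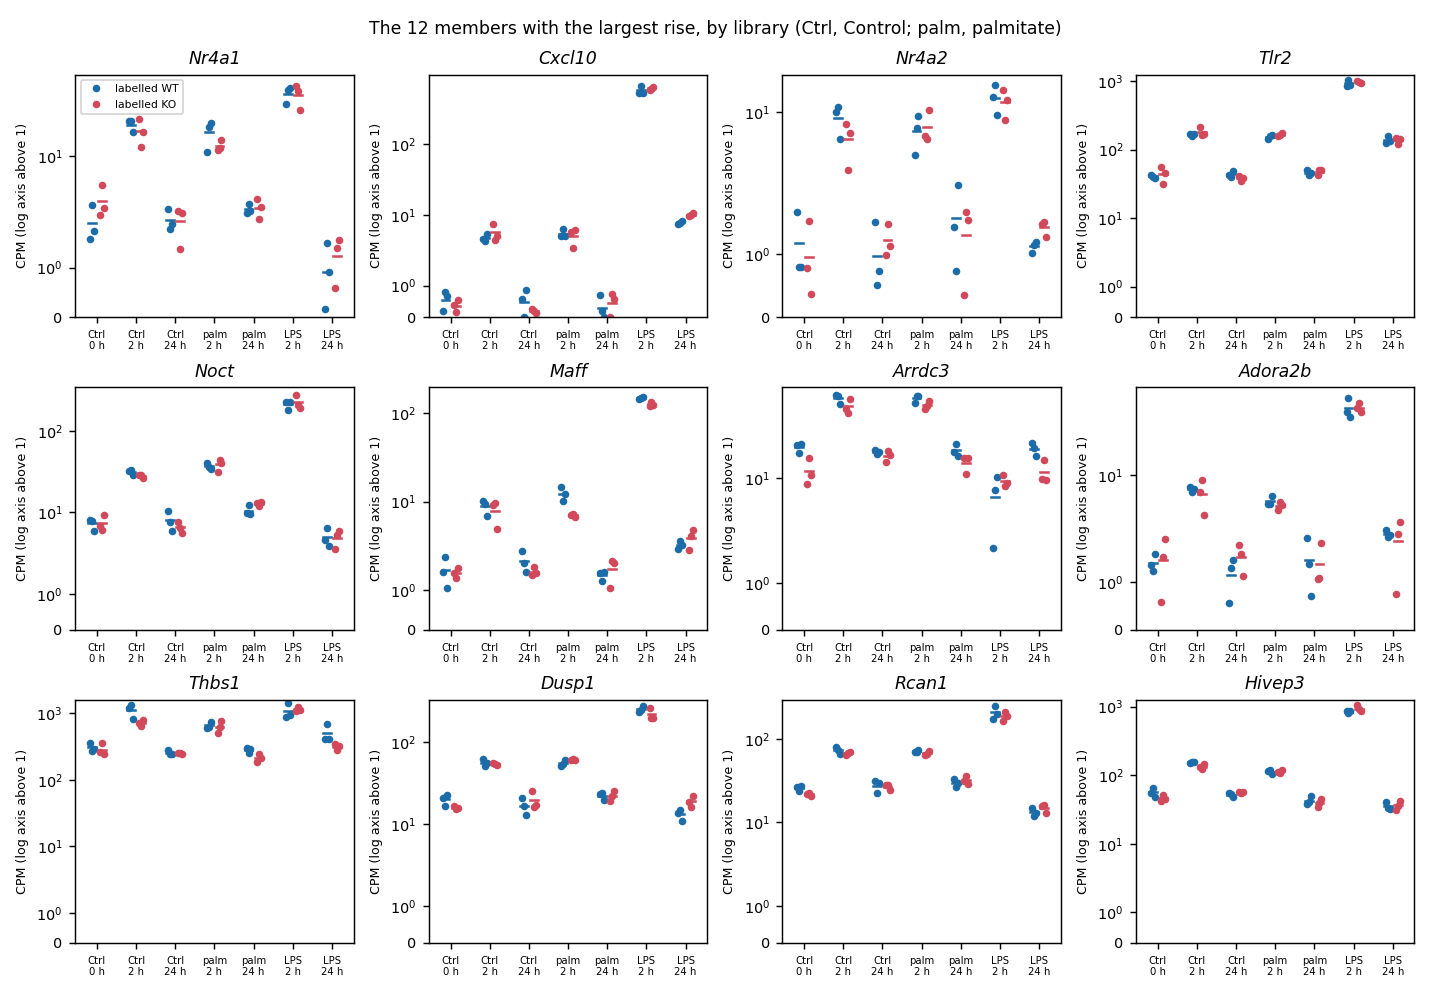
Level of the 12 members with the largest rise in each of 42 libraries, in TMM-scaled CPM on an axis that is linear below 1 and logarithmic above. Points are libraries, short lines the means of 3 libraries, blue labelled WT and red labelled KO. Control 2 h and palmitate 2 h sit at a like height in most panels. In WT, Thbs1 is lower at palmitate 2 h (591.7 to 744.0 CPM) than at Control 2 h (815.5 to 1311.1 CPM). Every LPS 2 h library is above every Control 2 h library except for Nr4a2 and Thbs1, whose libraries overlap, and Arrdc3, which is lower.

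By role, the members held 5 of the 24 genes in a list of immediate early genes, most of them transcription factors (Nr4a1, Nr4a2, Junb and Maff, and Ier3, which does not encode one), 5 of 14 NF-κB subunits and feedback genes (Nfkbia, Nfkbie, Tnfaip3, Bcl3 and Relb) and 3 of 12 tested MAP kinase feedback genes (the phosphatases Dusp1, Dusp4 and Dusp5). They also held the cAMP-responsive repressor Crem, the ornithine decarboxylase gene Odc1, the clock gene Per2, the p53 ligase gene Mdm2 and Zfp36, which encodes tristetraprolin. No member was in the lists of SRF and actin targets, heat shock, the unfolded protein response, the integrated stress response, sterol synthesis or hypoxia. Some listed genes fell just outside the rule. Myc rose by 0.796 and stayed under the 0.8 threshold, and Tnf rose by 2.05 but was 0.303 above its 0 h value at 24 h. Fosl2 missed the same threshold at 0.313 and Gse1 at 0.311, while Ccrl2 was kept at -0.2995, Zmynd15 at 0.291 and Luzp1 at 0.288. On the rise, Luzp1 (0.801), Rnf19b (0.802) and Frmd4a (0.805) were just inside, and Col12a1 (0.799) and Tgif1 (0.785) just outside. On the CPM minimum, Lpar1 (5.02), Cxcl10 (5.27) and Kif7 (6.09) were just inside, and Arhgap28 (4.94), Cdk5r1 (4.72) and Gbp2b (4.71) just outside.

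All 64 members were protein-coding and all 64 were among the 11624 genes tested. Reads of 13 members may be shared with an overlapping counted gene, since the sources do not say whether counting used the strand. For 12 of them the partner lies on the other strand (Dusp1, Bcl3, Tgm2, Junb, Pdgfa, Cebpb, Gadd45a, Arhgap22, Slc15a3, Kif7, Zmynd15 and Luzp1), and for Lpar1 on the same strand. Of the members discussed most beside those 6, GENCODE on GRCm38 (mm10) places Tnfaip3 (ENSMUSG00000019850) at chr10:19000910-19015657 on the minus strand, Arrdc3 (ENSMUSG00000074794) at chr13:80883384-80896042 on the plus strand and Frmd4a (ENSMUSG00000026657) at chr2:4017717-4614043 on the plus strand. The members with the most reads at Control 2 h, not scaled for length, were Thbs1, which encodes the matrix protein thrombospondin 1, Tgm2, the tissue transglutaminase gene, and Cebpb, a myeloid transcription factor.

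**Figure D2:**
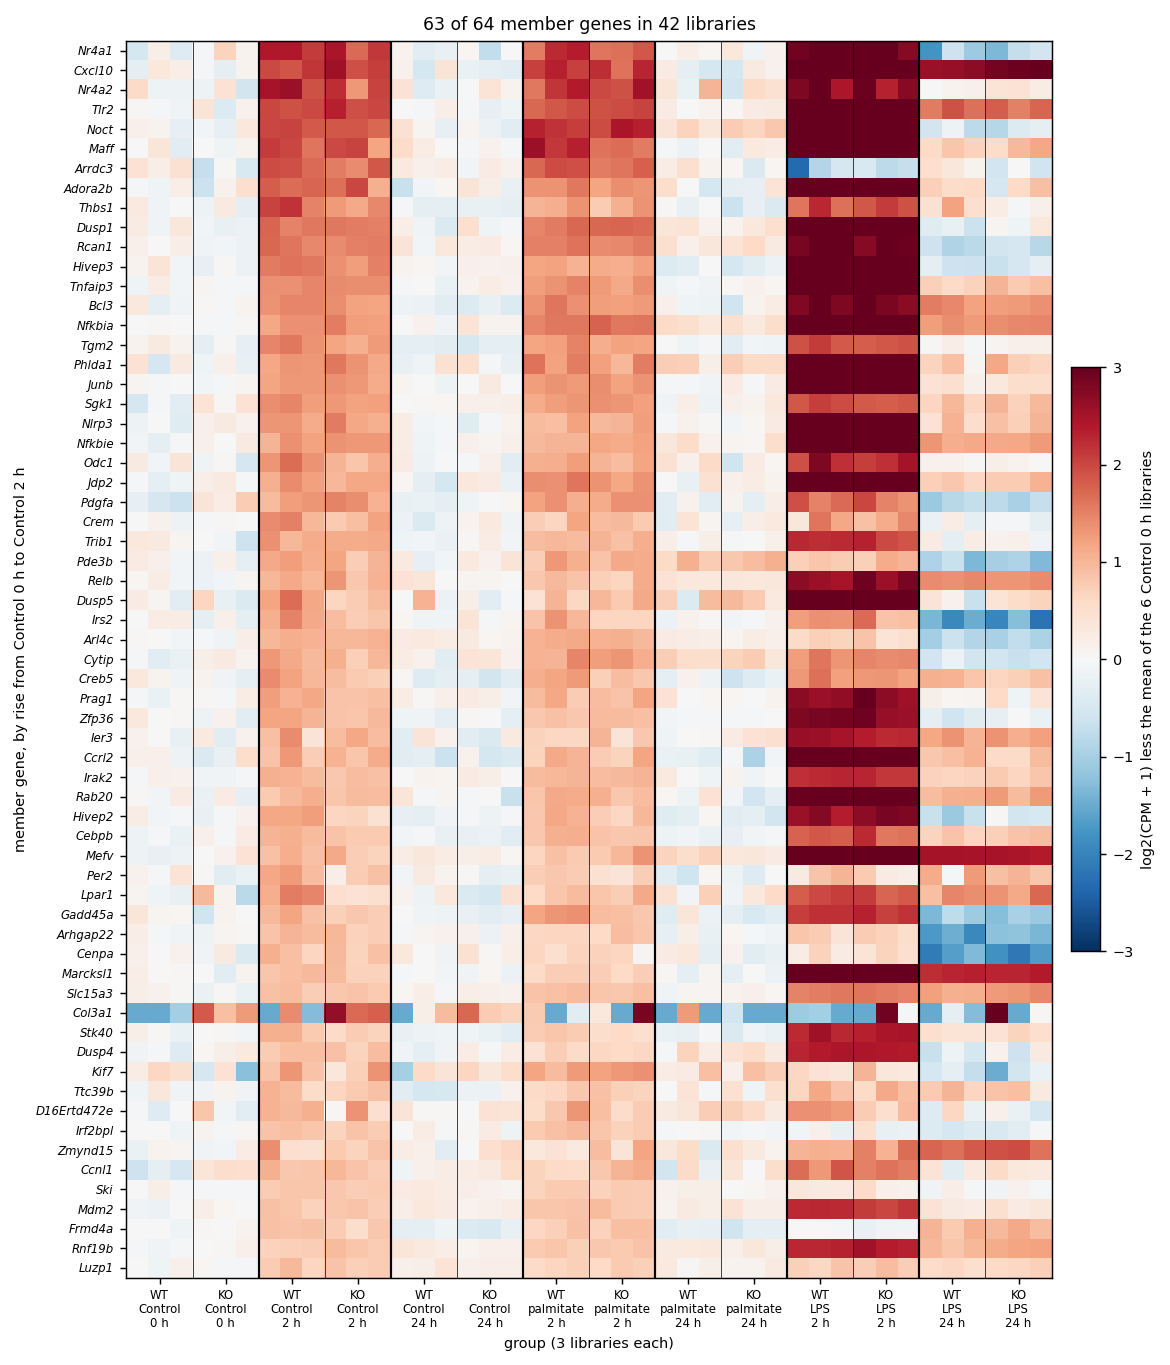
Of the 64 members, 63 (rows, ordered by rise) in 42 libraries (columns, 3 per group), as log2(CPM + 1) less the mean of the 6 Control 0 h libraries, with colours saturating at 3 either way. Control 2 h and palmitate 2 h are red for nearly every row, Control 24 h and palmitate 24 h return to pale, LPS splits the set, and the Col3a1 row varies from library to library within groups.

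Palmitate addresses whether the time course was also present with a fatty acid. At palmitate 2 h most members were near their Control 2 h level, and by palmitate 24 h 57 of the 64 had fallen. The comparisons with Control share libraries with the rule and are given without a test. Palmitate 2 h less Control 2 h had a median log2 fold change of -0.05 over the 64 members, with 56 of them within 0.3 and a range from -0.49 (Col3a1) to 0.35 (Noct). The median over all genes tested was -0.0003. The share of all genes within 0.3 is not given here, so the nearness is not read as particular to the members. Against Control 0 h, palmitate 2 h was higher for all 64, with a median of 1.03.

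Palmitate 24 h against palmitate 2 h used no Control library, so the members could be tested there over 6 libraries against 6. With p adjusted by Benjamini and Hochberg over all 11624 genes, the quasi-likelihood F test of edgeR called 57 members lower and 0 higher. Among all genes tested, 10.8% were called lower. The median log2 fold change was -0.95 over members and 0.00 over all genes, and all 64 estimates were negative. In 53 members the 6 libraries of one time did not overlap those of the other, against 9.62% of all genes. Of the 21 members that also pass the rule within each genotype on its own, a subset looked at after the data had been seen, 21 fell.

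Tnfaip3 encodes A20, the ubiquitin-editing enzyme that ends NF-κB signalling. It was at 82.6, 93.6 and 105.1 CPM at palmitate 2 h and at 33.6, 36.8 and 40.6 CPM at palmitate 24 h, and the 2 sets of libraries did not overlap. Its log2 fold change was -1.35 (adjusted p 8.05e-25 by edgeR, SE 0.06). Tgm2 went from 458.4, 493 and 610.5 CPM to 174.0, 199.1 and 215.9 CPM, again without overlap, a log2 fold change of -1.36 (adjusted p 8.05e-25 by edgeR, SE 0.06). Cxcl10 had the largest estimate, -3.76 (adjusted p 2.22e-13 by edgeR, SE 0.33), from 3.42, 5.35 and 6.27 CPM to 0, 0.383 and 0.724 CPM. The later levels are again near 3 counts, which makes its size imprecise.

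The nuclear receptor genes also fell, with log2 fold changes of -2.06 for Nr4a1 (adjusted p 1.80e-11 by edgeR, SE 0.21) and -2.27 for Nr4a2 (adjusted p 2.22e-08 by edgeR, SE 0.29). Maff, from 6.63, 8.79 and 14.5 CPM to 1.07, 1.59 and 2.17 CPM, fell by 2.49 (adjusted p 1.77e-15 by edgeR, SE 0.19). Arrdc3, from 45.6, 52.5 and 60.6 CPM to 10.9, 15.9 and 21.2 CPM, fell by 1.72 (adjusted p 5.48e-16 by edgeR, SE 0.12). None of these genes had overlapping libraries at the 2 times.

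The 7 members not called were Pde3b, Dusp5, Dusp4, Lpar1, D16Ertd472e, Zmynd15 and Col3a1. Pde3b, a phosphodiesterase that degrades cAMP, was at 31.8, 40.9 and 47.3 CPM at palmitate 2 h and at 28.5, 34.8 and 40.3 CPM at palmitate 24 h. Those libraries overlapped, and the log2 fold change was -0.17 (adjusted p 0.276 by edgeR, SE 0.10). Its Control 24 h libraries were lower, at 15.4, 21.6 and 24.6 CPM, so that palmitate 24 h less Control 24 h was 0.79, the highest such value of the 64, given without a test. The MAP kinase phosphatase genes Dusp4 and Dusp5 had estimates of -0.24 (adjusted p 0.0745 by edgeR, SE 0.10) and -0.27 (adjusted p 0.487 by edgeR, SE 0.23). In Control they returned to their 0 h level by construction of the rule, so this difference in call between palmitate and Control is not a test of a difference.

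**Figure D3:**
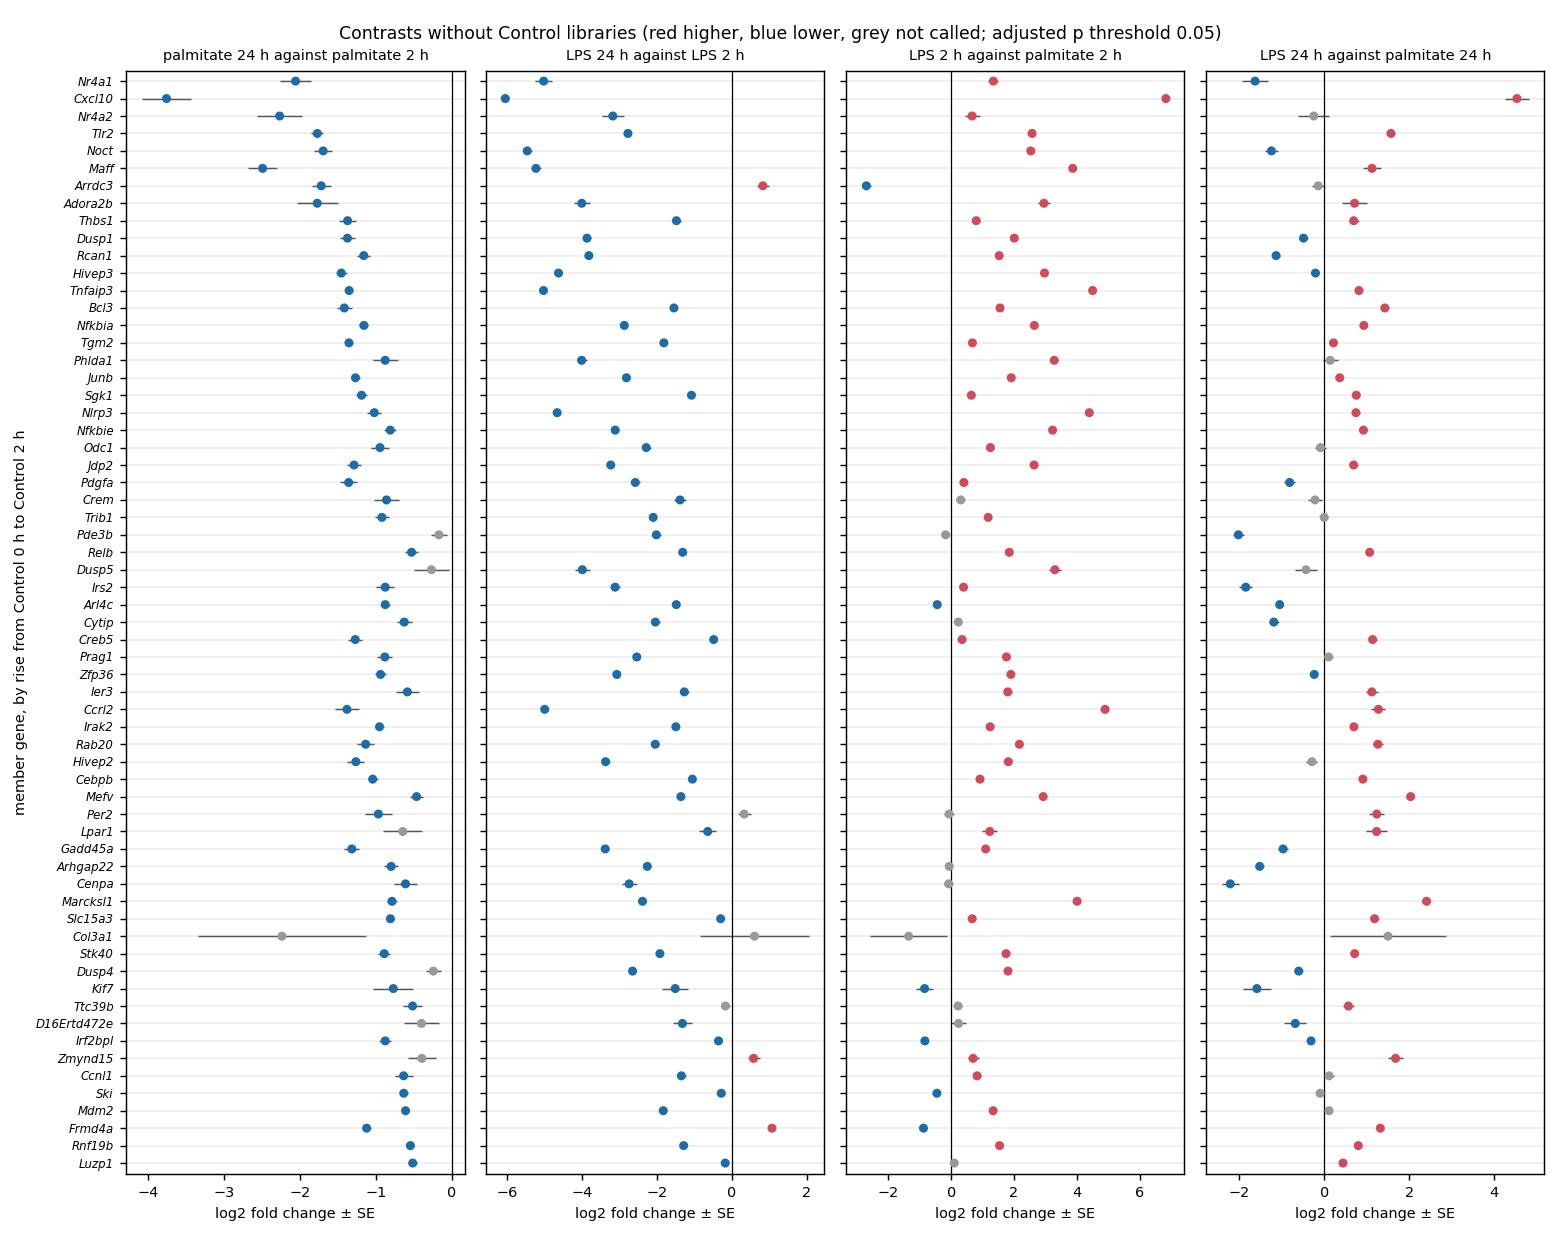
Log2 fold change (point) and SE (line) of 63 of the 64 members in the 4 contrasts that use no Control library, 6 libraries against 6, in the order of their rise in Control. Red is called higher, blue called lower and grey not called at an adjusted p of 0.05; palmitate 24 h against 2 h is negative for all 63, and LPS 2 h against palmitate 2 h is positive for 52.

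LPS addresses how the same genes stood under an inflammatory ligand. At 2 h, 48 members were higher with LPS than with palmitate and 6 were lower, where 19.2% and 15.7% of all genes tested were called higher and lower. The largest differences were in the chemokine Cxcl10 (6.83), the chemerin receptor gene Ccrl2 (4.89), Tnfaip3 (4.50), the inflammasome sensor Nlrp3 (4.39), the actin regulator Marcksl1 (4.00) and Maff (3.87), all as log2 fold changes. The median was 1.24 over members and -0.02 over all genes. Libraries of the 2 treatments did not overlap for 47 members, against 18% of all genes. Of the 21 members that pass the rule in each genotype, 19 were called higher.

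Tnfaip3 reached 2025, 2137 and 2190 CPM at LPS 2 h, far above its palmitate 2 h libraries, with a log2 fold change of 4.50 (adjusted p 1.37e-50 by edgeR, SE 0.05). Cxcl10 reached 528.1, 598.5 and 663.0 CPM, a log2 fold change of 6.83 (adjusted p 1.50e-45 by edgeR, SE 0.10). Tlr2 was at 844.0, 947.8 and 1040.0 CPM against 140.6, 161.4 and 172.6 CPM with palmitate, a log2 fold change of 2.57 (adjusted p 6.09e-34 by edgeR, SE 0.07). Each of these groups was apart from the other. Set against Control 2 h, without a test, LPS 2 h was higher by a log2 fold change over 1 for 37 of the 64 members. The median there was 1.26 over members and -0.02 over all genes tested, whose share over 1 is not given here.

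The 6 lower members were Arrdc3, Frmd4a, Irf2bpl, Kif7, Ski and Arl4c. Arrdc3 was at 2.15, 8.59 and 10.6 CPM at LPS 2 h, below every palmitate 2 h library and, at its median, below its own Control 0 h level. Its log2 fold change against palmitate 2 h was -2.70 (adjusted p 1.03e-21 by edgeR, SE 0.15). Frmd4a, a scaffold protein gene, was at 64.5, 70.9 and 75.1 CPM with LPS and at 115.8, 131.5 and 141.4 CPM with palmitate, a log2 fold change of -0.88 (adjusted p 6.10e-17 by edgeR, SE 0.06). For both genes the LPS libraries lay wholly below the palmitate libraries. Irf2bpl (-0.84), Kif7 (-0.84), the SMAD co-repressor gene Ski (-0.45) and the small GTPase gene Arl4c (-0.44) differed less. Among the 10 members not called were Crem (0.31, adjusted p 0.113 by edgeR), Per2 (-0.07, adjusted p 0.807 by edgeR) and Pde3b (-0.17, adjusted p 0.220 by edgeR). Crem was at 10.4, 18.9 and 26.3 CPM with LPS and at 13.1, 15.3 and 19.6 CPM with palmitate, a wide spread within overlapping groups.

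Between LPS 2 h and LPS 24 h, 58 members fell and 3 rose, where 29.9% and 30.5% of all genes tested did so. The median log2 fold change was -2.07 over members and 0.02 over all genes. LPS 2 h libraries take part in this comparison and in the one before, so their values are set side by side and not counted as separate support. Tnfaip3 fell by 5.04 (adjusted p 3.43e-52 by edgeR, SE 0.05) to 56.1, 62.5 and 76.3 CPM. Cxcl10 fell by 6.06 (adjusted p 8.50e-45 by edgeR, SE 0.09) to 7.53, 8.91 and 10.7 CPM, and Noct by 5.47 (adjusted p 2.20e-38 by edgeR, SE 0.12) from 183.3, 217.5 and 276.0 CPM to 3.58, 4.93 and 6.45 CPM. All 3 genes had separate groups.

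The members that rose were Frmd4a (1.08), Arrdc3 (0.83) and Zmynd15 (0.58). Frmd4a rose to 130.4, 150.6 and 165.3 CPM (adjusted p 9.48e-21 by edgeR, SE 0.06), which placed LPS 24 h above LPS 2 h in every library. Arrdc3 rose to 9.52, 15.5 and 21.6 CPM (adjusted p 2.60e-05 by edgeR, SE 0.17), and its ranges at the 2 times overlapped. Per2, Col3a1 and Ttc39b were not called.

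LPS 24 h was higher than palmitate 24 h for 32 members and lower for 18, where 25.4% and 26.4% of all genes were called higher and lower. The share of members called lower, 28.1%, was near that of all genes. Marcksl1 was at 294.9, 309.0 and 330.7 CPM with LPS and at 51.6, 59.4 and 66.8 CPM with palmitate (log2 fold change 2.41, adjusted p 3.68e-34 by edgeR, SE 0.07). Mefv, which encodes the inflammasome protein pyrin, was at 113.8, 120.8 and 123.1 CPM against 25, 28.5 and 34.5 CPM (2.03, adjusted p 8.83e-29 by edgeR, SE 0.08). The NF-κB feedback genes Bcl3 (1.42), Relb (1.07), Nfkbia (0.93), Nfkbie (0.92) and Tnfaip3 (0.82) were also higher.

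Members lower with LPS at 24 h included Arl4c, at 105.3, 113.7 and 136.5 CPM against 226.7, 246.5 and 255.0 CPM (-1.05, adjusted p 5.08e-21 by edgeR, SE 0.06). Pde3b was at 6.74, 9.02 and 11.3 CPM with LPS (-2.02, adjusted p 9.26e-20 by edgeR, SE 0.12), below every palmitate 24 h library. Cenpa, which encodes the centromeric histone, had the lowest estimate at -2.21 and the insulin receptor substrate gene Irs2 was at -1.85. Nr4a1 was at 0.171, 1.21 and 1.76 CPM with LPS against 2.72, 3.37 and 4.11 CPM with palmitate (-1.63, adjusted p 1.44e-05 by edgeR, SE 0.31). The lowest of these LPS libraries is under the level of 3 counts.

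The pathway lists set the members among their relatives, and they were written with earlier results of these data known. The counts of a list include its members, so they are not separate from the member results above. Of 14 NF-κB subunits and feedback genes tested, 14 were higher at LPS 2 h than at palmitate 2 h and 12 were lower at palmitate 24 h than at palmitate 2 h, with 0 in the other direction in both. Among the 24 immediate early genes listed, 18 were lower and 3 higher at palmitate 24 h than at palmitate 2 h, and 19 were higher and 4 lower with LPS 2 h than with palmitate 2 h. Of 12 MAP kinase feedback genes, 5 were lower in palmitate over time, and 9 were higher and 1 lower with LPS at 2 h. In the list of 18 cytokines and chemokines, 10 fell in palmitate, 1 rose, and 18 were higher with LPS at 2 h. The cAMP list had 5 of 7 lower and 1 higher in palmitate over time, while LPS against palmitate at 2 h gave 3 higher and 3 lower.

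Other lists moved less or otherwise between palmitate 2 h and 24 h. Of 11 growth factor and adhesion genes, 7 were lower and 2 higher. Sterol genes had 5 of 12 higher and 0 lower, hypoxia and glycolysis genes 6 of 10 higher and 2 lower, and the MYC and ribosome list 2 of 18 in each direction. The SRF and actin list had 3 of 14 lower and 1 higher, heat shock 1 of 9 higher, the unfolded protein response 3 of 10 lower and the integrated stress response 5 of 13 lower and 1 higher. The clock list had 4 of 9 lower and 1 higher, p53 targets 2 of 8 lower and 1 higher, and mRNA decay regulators 3 of 7 lower and 1 higher. Of all genes tested, 8.83% were called higher and 10.8% lower in that contrast.

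Genotype was the study's own question. In the treated conditions no member was called between libraries labelled KO and WT. The counts were 0 at palmitate 2 h, LPS 2 h, palmitate 24 h and LPS 24 h by edgeR, where 0.146%, 0.465%, 0.0688% and 0.146% of all genes were called. At an unadjusted p under 0.05 the members numbered 8, 6, 8 and 12, and DESeq2 called 0, 0, 0 and 2. At Control 24 h 0 members were called by edgeR, with 7 at an unadjusted p under 0.05 and 0 by DESeq2, where 0.12% of all genes were called. The genotype-by-time term was called for 0 members in LPS (0.232% of all genes, 11 members at an unadjusted p under 0.05, 1 by DESeq2) and for 0 in palmitate (0.0086% of all genes, 4 members at an unadjusted p under 0.05, 0 by DESeq2). The shares of all genes are those called by edgeR after adjustment. Shares at an unadjusted p under 0.05 or by DESeq2 are not given here, so those counts are not read as an excess over all genes.

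Control 0 h was the condition with most differences. There 10 members were called between labels, 6 higher and 4 lower in KO, where 12.5% of all genes were called. The share of members called was 15.6%, near that of all genes. The rule used these libraries, but only their mean over genotypes. Pdgfa, which encodes a growth factor for mesenchymal cells, was at 16.3, 18.2 and 21.9 CPM in the 3 WT libraries and at 30.8, 34.7 and 45.2 CPM in the 3 KO libraries (log2 fold change 0.99, adjusted p 3.90e-05 by edgeR, SE 0.17). Sgk1, a kinase induced by serum and glucocorticoids, was higher by 0.59 (adjusted p 0.000134 by edgeR, SE 0.11) and Ccnl1, a cyclin of the splicing machinery, by 0.95 (adjusted p 0.000204 by edgeR, SE 0.18). Tgm2 and Arrdc3 were lower, by log2 fold changes of -0.32 (adjusted p 0.00633 by edgeR, SE 0.08) and -0.75 (adjusted p 0.00892 by edgeR, SE 0.20). The count of 10 dropped to 6 without WT library 1, to 6 without WT library 2, to 6 without KO library 1 and to 4 without KO library 3. Tgm2 lost its call without WT library 2 (-0.27), KO library 1 (-0.26) or KO library 3 (-0.26), and Arrdc3 without KO library 1 (-0.58) or KO library 3 (-0.67).

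At Control 2 h, 2 members were called, both lower in KO, where 0.49% of all genes were called. Thbs1 was at 815.5, 1180.0 and 1311.0 CPM in WT and at 641.3, 701.6 and 795.3 CPM in KO (log2 fold change -0.63, adjusted p 0.0455 by edgeR, SE 0.16). Hivep2, a zinc finger gene, had -0.64 (adjusted p 0.0228 by edgeR, SE 0.14). The count was 0 without WT library 1, WT library 2, or any of the 3 KO libraries, with Thbs1 between -0.48 and -0.71 and Hivep2 between -0.56 and -0.67. Hivep2 also lost its call without WT library 3 (-0.60).

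The rule chose the members by the rise in these same Control libraries, through their mean over both genotypes. A gene with a small rise in KO thus enters only through a larger rise in WT, and the reverse. The rise in each genotype is therefore given as a description of the members and not as separate support. On the log2(mean CPM + 1) scale of the rule the rise was larger in WT than in KO for 46 of 64 members, and for 5194 of the 9403 genes past the CPM minimum. In the TMM-scaled model the genotype-by-time term was negative for 39 members and positive for 25, and it was negative for 50.9% of all genes tested. The rise was under 0.8 in KO for 20 members and in WT for 3, and 40 members pass the rule in WT columns alone, 31 in KO columns alone and 21 in both. The genotype-by-time term (KO less WT at 2 h, less KO less WT at 0 h) was called for 5 members, all negative, where 4.77% of all genes were called. The median of this term over members was -0.10, against -0.01 over all genes.

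Sgk1 rose by 1.67 in WT and 0.95 in KO as a log2 fold change, a difference of -0.72 (adjusted p 0.00120 by edgeR, SE 0.14). Ccnl1 rose by 1.39 and 0.41, a difference of -0.98 (adjusted p 0.00884 by edgeR, SE 0.24), and Pdgfa by 1.71 and 0.85, a difference of -0.87 (adjusted p 0.0111 by edgeR, SE 0.22). All 3 genes were among the members higher in KO at Control 0 h. Ccnl1 and Pdgfa pass the rule in neither genotype alone and are members only through the mean over both. Sgk1 passes it in KO columns but not in WT columns, where its 24 h value was 0.42 above that at 0 h. On the scale of the rule Ccnl1 rose by 0.41 in KO, and its WT value at 24 h was 0.65 above that at 0 h. For Pdgfa the 24 h value less the 0 h value was 0.32 in WT and -0.47 in KO. At Control 2 h Sgk1 was at 164.9 to 190.4 CPM in WT and at 158.8 to 170.1 CPM in KO, with overlap. Ccnl1 was at 59.9 to 72.0 CPM in WT and at 57.5 to 68.4 CPM in KO, also with overlap. The count of 5 dropped to 3 without WT Control 0 h library 3. Pdgfa lost its call without that library (-0.76) or without KO Control 0 h library 3 (-0.70). Cebpb (-0.46, adjusted p 0.0376 by edgeR, SE 0.14) lost its call in 8 of the 12 fits that left out a library, with values of -0.39 to -0.46 in those 8, when WT or KO Control 0 h libraries 1 or 3, WT Control 2 h libraries 1 or 2, or KO Control 2 h libraries 2 or 3 were absent.

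**Figure D4:**
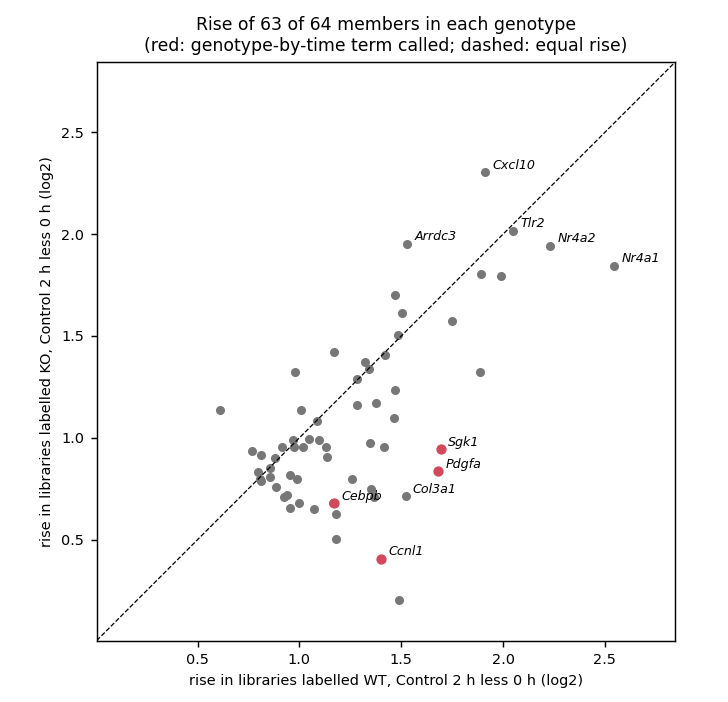
Rise of 63 of the 64 members from Control 0 h to Control 2 h, as the difference of log2(mean CPM + 1) over 3 libraries, in libraries labelled WT (horizontal) and KO (vertical). Points under the dashed line rose more in WT (45 of those plotted), and the 4 red points passed the genotype-by-time test.

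The fibroblast markers other than Col3a1 summed to 0.129 to 0.883 CPM in WT Control 0 h and to 38.9 to 63.98 CPM in KO Control 0 h, the same libraries in which Pdgfa, Sgk1 and Ccnl1 were higher in KO. At Control 2 h, where Pdgfa was at 51.1, 64.2 and 67.3 CPM in WT and at 54.8, 69.8 and 74.7 CPM in KO, they summed to 1.16 to 51.8 CPM and to 64.04 to 104.3 CPM. In WT Control 2 h library 1, with 1.16 CPM of these markers, Pdgfa was at 51.1 CPM, above every Control 0 h library. The part of these markers in the difference between labels at 0 h was not tested.

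Col3a1, a collagen gene, is both a member and one of the 6 fibroblast markers. Its counts ranged from 0 to 168 per library and its level from 0 to 25.1 CPM. Within WT Control 2 h it was at 0, 0.148 and 6.62 CPM, and the library at 6.62 CPM was the one with 51.8 CPM of the other fibroblast markers. It had no count in 14 libraries, in which those markers summed to at most 2.92 CPM. Col3a1 was called in none of the 4 contrasts without Control libraries, with adjusted p between 0.163 and 0.741 by edgeR. With all genes of at least 1 count in the fit it was called in 3 of them, at adjusted p of 3.457e-08 for palmitate over time, 0.00662 for LPS against palmitate at 2 h and 0.00595 at 24 h, and without WT palmitate 24 h library 2 it was called for palmitate over time (-5.47, adjusted p 0.0219 by edgeR). Between labels at Control 0 h Col3a1 was among the 10 members called (5.20, adjusted p 0.0378 by edgeR). It lost that call in DESeq2 (5.57, adjusted p 0.104) and without WT library 1 (4.77), WT library 2 (4.69), WT library 3 (8.17), KO library 1 (4.88) or KO library 3 (5.27). Its level moved with these markers from library to library, and their part in its rise in Control was not tested. Dcn and Lum, defining fibroblast markers, were at 0 in most groups, and Pdgfra reached at most 0.900 CPM in any library.

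A step added after the data had been seen left out the 6 treated libraries with over 10 CPM of the other fibroblast markers. Only library 2 then remained in KO palmitate 2 h and in KO LPS 24 h, so effect sizes alone are given. Members that lost their call included Ier3 (-0.37) and Kif7 (-0.76) in palmitate over time and Luzp1 (-0.15) in LPS over time. For LPS against palmitate they included Nr4a2 (0.78) at 2 h, and Hivep3 (-0.22), Zfp36 (-0.15), Adora2b (0.83) and D16Ertd472e (-0.71) at 24 h. The same step could not be applied to KO Control 0 h or KO Control 2 h, where all 3 libraries were above that level. In bulk RNA, fewer cells of a type and less RNA per cell cannot be told apart.

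**Figure D5:**
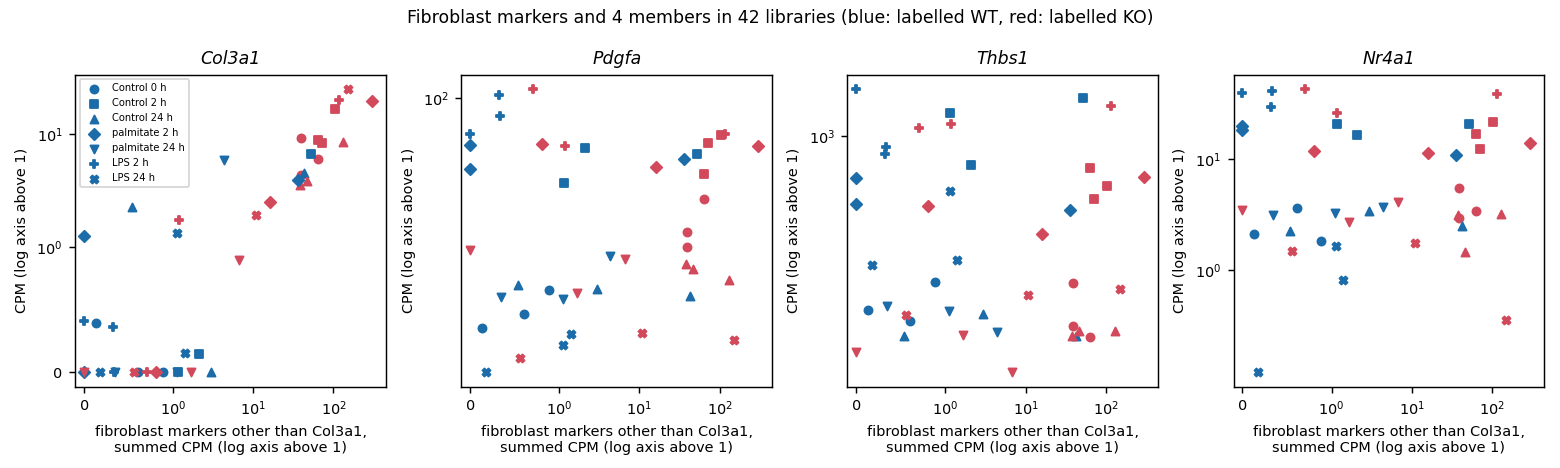
Level of Col3a1, Pdgfa, Thbs1 and Nr4a1 (vertical) against the summed level of the 5 fibroblast markers other than Col3a1 (horizontal) in 42 libraries, both in CPM on axes that are linear below 1 and logarithmic above, with blue labelled WT, red labelled KO and a marker shape per condition. Col3a1 is at most 2.23 CPM where the other markers sum to under 1 CPM and reaches 25.1 CPM where they are high, while Pdgfa differs between conditions also in libraries with under 1 CPM of them.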

How the data were processed

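Total RNA of BMDM was made into ribodepleted stranded libraries (SMARTer Pico) and sequenced in pairs. The authors aligned reads with STAR (2.7.3a) to mm10 and deposited raw counts per gene, with no normalization. The submitters' processing notes also name fastp 0.19.11 and mm9. The annotation release and the use of strand in counting are not given in the sources used here. All columns of the 42 libraries were used, each matched to its group by name.

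Counts were filtered with filterByExpr, scaled by TMM and fitted in 1 model of 14 groups over all 42 libraries with edgeR 4.0.16 in R 4.3.3. Contrasts were tested by the quasi-likelihood F test, with Benjamini-Hochberg adjustment over 11624 genes and a threshold of 0.05, and the SE was taken as the absolute log2 fold change over the square root of F. The tested genes held 99.88% of counts. The scripts were tested on simulated data with known fold changes. Alternatives were RLE scaling, no filter on low counts, a fit of only the libraries compared, DESeq2 1.42.0 and leaving out each library in turn. Positions are from GENCODE on GRCm38, promoters from RefSeq on GRCm38.p6, and 32620 of 37310 gene IDs matched a symbol. Intervals and floors cover counting error only.

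The members and gene lists were chosen with earlier results of these data known. Contrasts that use the Control libraries of the rule, other than between genotypes, are given without a test. Genes named were the 12 with the largest rise, the 3 with the most reads at Control 2 h, up to 2 with the lowest adjusted p in each direction of a tested contrast, members of the pathway lists and the 3 genes nearest each threshold on either side. Nlrp3, Irs2, Cenpa, Irf2bpl, Ski, Ccnl1, Ttc39b, D16Ertd472e and Col3a1 were named after their values were seen. Exon counts, AU-rich elements and the step that leaves out libraries with fibroblast markers were also added after the data had been seen. The values of 1 member are not reported here, though the counts over the 64 members include it, and the plots leave it out.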

Additional observations from a re-analysis of the deposited data

Results flagged for a closer look

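Of 84 sets of 6 libraries (12 leading members in 7 conditions), 7 held a library whose gap to the nearest other library exceeded Dixon's 95% critical value, and chance alone sets about 1 in 20 such sets apart. The highest libraries were WT Control 24 h library 1 for Thbs1 (281.6 CPM, nearest 250.4 CPM), WT LPS 24 h library 2 for Thbs1 (675.9 CPM, nearest 413.5 CPM), KO Control 2 h library 1 for Tlr2 (212.1 CPM, nearest 171.1 CPM) and for Cxcl10 (7.419 CPM, nearest 5.334 CPM), and WT Control 2 h library 1 for Dusp1 (61.55 CPM, nearest 54.65 CPM). The lowest were KO LPS 24 h library 1 for Adora2b (0.7455 CPM, nearest 2.648 CPM) and WT LPS 2 h library 1 for Arrdc3 (2.147 CPM, nearest 7.604 CPM).

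For 5 members, 4 of which are given here, the rise from Control 0 h to 2 h differed between labels by the genotype-by-time test. That is 7.81% of members, where 4.77% of all genes tested were called. The rule chose the members by the mean rise in these same libraries, so no excess over all genes is read from these shares. The differences in log2 fold change, KO less WT, were -0.9823 for Ccnl1, -0.8667 for Pdgfa, -0.7171 for Sgk1 and -0.4561 for Cebpb.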

How the results depend on the processing

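No estimate of a tested contrast changed direction past the threshold under any alternative. No paired analysis was possible because the columns name only the group and carry no replicate numbers. With all genes of at least 1 count tested, the members called between labels numbered 3 at palmitate 2 h, 2 at LPS 2 h, 2 at palmitate 24 h, 5 at LPS 24 h, 5 at Control 2 h and 1 at Control 24 h, and the genotype-by-time term 2 in LPS and 2 in palmitate. In fits of only the libraries compared the counts were 2 at palmitate 2 h and 9 at Control 2 h. DESeq2 called 2 at LPS 24 h, 1 at Control 2 h and 1 for the term in LPS, and RLE scaling left 1 at Control 2 h. The shares of all genes called under these settings are not given here. The counts are therefore not read as a result about the members. Leaving out 1 library at a time gave 60 to 62 members for LPS over time, 56 to 58 for palmitate over time, 52 to 56 for LPS against palmitate at 2 h and 47 to 53 at 24 h. Between labels it gave 4 to 13 at Control 0 h, 0 to 2 at Control 2 h, 0 to 2 at LPS 24 h (2 without KO library 2, 1 without WT library 1 or 3) and 0 to 0 in the other conditions. The genotype-by-time term gave 3 to 6 in Control, 0 to 1 in LPS (1 without WT LPS 2 h library 2 or KO LPS 2 h library 1) and 0 to 0 in palmitate. The rule itself found 58 to 71 genes without 1 Control library, 75 in WT alone, 50 in KO alone, 73 with TMM scaling (56 of the 64 shared) and 65 with a pseudocount of 0.5 (61 shared). The causes were not tested. Depth limits the members near 3 counts at 0 h, such as Cxcl10 and Nr4a2.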
